A study of Xenopus laevis with 6 samples.

Results

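The Nodal and Lefty family genes were taken by name from the gene-level read counts: every row whose name begins with nodal or lefty, and every row named gdf1 or gdf3 with or without a copy suffix. The rule found 11 of 45099 gene rows, 9 of them nodal rows and 2 lefty rows, and 0 named gdf1 or gdf3. The rows gdf1.1 and gdf3.1 carry another suffix, lie outside the rule and are given beside the members as related genes. The samples were whole Xenopus laevis (African clawed frog) embryos, taken singly at developmental stage 11.5, in gastrulation, and sequenced from polyadenylated RNA. Of these, 3 were uninjected controls and 3 had been injected at the 2-cell stage, into both cells on the animal side, with 100 pg of mRNA for dkk, an antagonist of Wnt signalling. Each dkk embryo had a control sibling, and the 3 sibling pairs came from 3 different matings. Embryos injected with another mRNA were not analysed here, so injection and dkk cannot be told apart.

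Nodal proteins are secreted ligands of the TGF-beta superfamily that induce mesoderm and endoderm in the vertebrate gastrula. They bind Activin receptors together with co-receptors of the EGF-CFC family, of which tdgf1 (Cripto) is one, and the receptors phosphorylate Smad2, which enters the nucleus and acts with DNA-binding partners such as Foxh1 and Eomes. Lefty proteins are secreted inhibitors of Nodal, and both nodal and lefty genes are themselves switched on by the pathway, so the ligand and its inhibitor form paired feedback loops. In Xenopus the family is expanded: nodal5 and nodal6 are among the earliest zygotic genes, nodal1 and nodal2 induce mesendoderm, nodal3 is a target of maternal Wnt/β-catenin signalling with little mesoderm-inducing activity, and nodal, the gene once called Xnr4, is expressed on the dorsal side of the gastrula. Xenopus laevis carries many genes in an L and an S copy, one from each of its subgenomes, and copies are named here with that suffix.

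Reads in genes numbered 17460820 to 19880568 per library. Rows read as a check on Wnt signalling differed between the siblings of every pair. axin2.L, a feedback inhibitor switched on by Wnt signalling, stood at 53.2 to 93.8 CPM (counts scaled to TMM library sizes) in controls and at 0.816 to 5.51 CPM in dkk embryos. dkk1.S, whose reads may include the injected mRNA, stood at 11.9 to 19.9 CPM in controls and 473 to 725 CPM in dkk embryos. Of the other rows of this check, sp5.S and axin2.S fell, with log2 fold changes of -6.69 and -4.46, while sp5.L (-5.30, adjusted p = 0.141) and dkk1.L (-2.08, adjusted p = 0.152, edgeR) did not pass, and the call of axin2.S was lost without pair 2 (adjusted p = 0.164) or pair 3 (0.0532). Markers of endoderm, mesoderm, organizer and ectoderm had reads in all 12, 8, 12 and 9 of their rows. Besides Brachyury, described with the targets, the marker rows past the threshold were myf5.L (-2.51) and myf5.S (-1.74), which fell, and krt18.S (0.80), which rose; without pair 2 those of myf5.S (adjusted p = 0.0641) and krt18.S (0.16) were lost. Of the 8 tested mesoderm rows 4 fell, where 0.467% of all tested genes fell, and of the 9 ectoderm rows 1 rose, where 0.106% rose (edgeR). The 4 that fell are the L and S copies of Brachyury and of myf5, so they are not 4 independent genes. Of the endoderm, organizer and ciliated roof plate rows 0 of 9, 0 of 12 and 0 of 5 tested passed (edgeR). An unadjusted p under 0.05 was reached by 2, 3 and 1 higher rows and 0, 1 and 0 lower rows, against 3.63% and 4.19% of all tested genes. DESeq2 called 1, 4 and 0 rows of these 3 lists, against 1.78% of genes, and limma-voom 0, against 0.651%. Rows of neurula-stage genes summed to 17.1 to 41.0 CPM in controls and 16.05 to 39.8 CPM in dkk embryos. Reads that aligned at more than 1 place were not counted, which can lower the count of any family member that has a near-identical copy, by an amount not known here. Transcript lengths were not used here, so levels are compared between embryos within a row and never between rows.

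The L copies of the ligand gene nodal and of its inhibitor lefty had more reads in every dkk embryo than in any control, and their S copies had more reads in each dkk embryo than in its own sibling. In CPM, every dkk embryo lay above every control in 2.66% of tested genes. The median log2 fold change of the 5 members that could be tested was 1.15, and that of all 21643 tested genes was -0.00131. No member passed an adjusted p of 0.05 in the paired fit of all genes (0 of 5 tested, edgeR with Benjamini-Hochberg adjustment), where 0.573% of all tested genes passed, 0.106% higher and 0.467% lower. At an unadjusted p under 0.05, 4 of the 5 were higher and 0 lower, against 3.63% of all tested genes higher. Higher in 3 of 3 pairs were 4 of the 5, against 13.4% of tested genes. In both counts the 4 are the L and S copies of nodal and of lefty in the same embryos, so they are not 4 independent genes. With copies summed, 2 of 3 tested members were higher at an unadjusted p under 0.05 (edgeR). The 5 tested rows are the members with enough reads. The other 6 did not pass the filter on low counts, and no statement on the family as a whole follows from the tested ones. In whole embryos, more expressing cells and more RNA per cell cannot be told apart.

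nodal.L had 126, 154 and 202 reads in controls of matings 1 to 3 and 346, 501 and 295 reads in their dkk siblings. In CPM these were 7.35, 8.38 and 10.2 in controls and 18.6, 27.9 and 13.4 in dkk embryos. All 3 dkk embryos lay above all 3 controls, as they did in 2.66% of tested genes, and the dkk embryo of mating 3 lay nearest to the controls. The mean went from 8.65 ± 1.45 CPM (SD, n = 3) to 19.9 ± 7.37 CPM, with a fitted log2 fold change of 1.15 ± 0.27 (SE) and an adjusted p of 0.201 (edgeR). By its unadjusted p this row ranked 352 among all tested genes.

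nodal.S had few reads, 21, 11 and 34 in controls 1 to 3 and 64, 25 and 69 in dkk siblings. That is 1.22, 0.599 and 1.72 CPM in controls and 3.43, 1.39 and 3.13 CPM in dkk embryos. The groups overlapped because the dkk embryo of mating 2 lay below control 3, while each dkk embryo was above its own sibling. The log2 fold change was 1.17 ± 0.32 (SE), with an adjusted p of 0.282 (edgeR).

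lefty.L had 251, 548 and 701 reads in controls and 953, 2172 and 1023 reads in dkk siblings of matings 1 to 3. Its level was 14.6, 29.8 and 35.5 CPM in controls and 51.1, 121 and 46.4 CPM in dkk embryos. The groups did not overlap, dkk higher as in 2.66% of tested genes, and the dkk embryo of mating 2 stood far above the other dkk embryos. The mean was 26.6 ± 10.8 CPM (SD, n = 3) in controls and 72.8 ± 41.8 CPM in dkk embryos. The fitted log2 fold change was 1.41 ± 0.35 (SE; adjusted p = 0.324, edgeR).

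lefty.S, the other copy of the inhibitor, had 161, 324 and 306 reads in controls and 265, 666 and 380 reads in dkk siblings. Its level was 9.39, 17.6 and 15.5 CPM in controls and 14.2, 37.1 and 17.2 CPM in dkk embryos. Here the groups overlapped, since the dkk embryos of matings 1 and 3 lay within the range of the controls. The log2 fold change was 0.61 ± 0.22 (SE; adjusted p = 0.486, edgeR).

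The size of the difference varied between sibling pairs. The log2 ratios of dkk over control were 1.32, 1.72 and 0.38 for nodal.L, 1.80, 2.02 and 0.39 for lefty.L and 0.59, 1.07 and 0.15 for lefty.S in pairs 1 to 3. Those of nodal.S were 1.41, 1.09 and 0.83. Pair 3 thus gave the smallest ratio in all 4 rows. With 1 embryo per group and mating, the difference between pairs has no replicate and was not tested. The dkk embryo of pair 3 had the highest dkk1.S level, 725 CPM, and its log2 ratio of axin2.L was -5.85, against -5.52 and -4.06 in pairs 1 and 2. Other rows of the Wnt check were nearest to 0 in pair 3, with log2 ratios in pairs 1 to 3 of -5.90, -3.60 and -3.42 for axin2.S, -6.81, -5.85 and -3.88 for sp5.L and -2.38, -2.97 and -0.94 for dkk1.L. Those of sp5.S were -6.43, -5.47 and -5.73, so the rows of the check do not rank the pairs alike. The count of calls changed when pair 3 was left out. Then nodal.L (log2 fold change 1.55, adjusted p = 0.00979) and lefty.L (1.92, adjusted p = 0.00092) passed (edgeR). In that fit 3.03% of all tested genes passed, against 0.573% with all pairs in. DESeq2 called the same 2 rows with all pairs in (adjusted p = 0.011 for nodal.L and 0.000156 for lefty.L), where it called 1.78% of genes, and limma-voom called 0 members and 0.651% of genes.

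The L copy of lefty held a larger share of the lefty reads in these dkk embryos than in the controls. This comparison was added after the data were seen, and the difference did not pass over all pairs. Of the reads in both copies, lefty.L held 60.9% (95% exact binomial interval 56 to 65.7), 62.8% (59.5 to 66.1) and 69.6% (66.7 to 72.4) in controls 1 to 3. In the dkk siblings it held 78.2% (75.8 to 80.5), 76.5% (74.9 to 78.1) and 72.9% (70.5 to 75.2). The share was above every control in every dkk embryo, and how many other genes with both copies separate in this way was not counted. The intervals cover counting error only. The log2 fold change of the L copy exceeded that of the S copy by 1.204, 0.95 and 0.23 in pairs 1 to 3. A fit of this difference over the 4549 genes with both copies tested gave 0.78 ± 0.22 (SE), with an unadjusted p of 0.00817 and an adjusted p of 0.357 (edgeR), so it did not pass. In that fit 0.022% of genes passed and 8.62% had an unadjusted p under 0.05. It was 0.59 without pair 1 (adjusted p = 0.999), 0.70 without pair 2 (0.812) and 1.07 without pair 3 (8.08e-05, edgeR). These fits with a pair left out were not planned, and the share of genes that passed in them was not counted. The small value without pair 3 thus has no background to be read against.

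For nodal the L copy held 85.7%, 93.3% and 85.6% of the reads in controls and 84.4%, 95.2% and 81% in dkk siblings. The shares of the groups overlapped, and both embryos of mating 2 had the highest. The L copy's log2 fold change differed from that of the S copy by -0.10 ± 0.29 (SE; adjusted p = 0.97, edgeR), which leaves room for a difference in either direction.

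**Figure D1:**
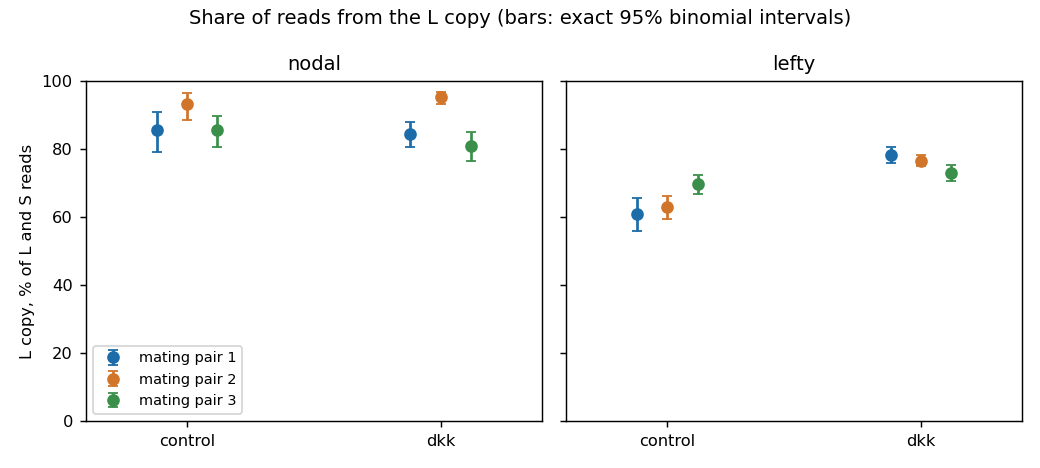
Percentage of the reads of both copies that fell in the L copy of nodal and of lefty, by group, with exact 95% binomial intervals and 1 point per embryo coloured by mating pair. The lefty share is 60.9% to 69.6% in controls and 72.9% to 78.2% in dkk embryos, while the nodal shares of the groups overlap.

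The numbered nodal genes were at the edge of detection in these libraries. The rows were nodal1.L, nodal1.S, nodal2.L, nodal2.S, nodal3.2.L, nodal6.L and nodal6.S, and together these 7 rows had 15, 31 and 39 reads in controls 1 to 3 and 13, 15 and 133 reads in dkk siblings. Of all the embryos only the dkk embryo of mating 3 had more than 1.97 CPM in their sum, at 6.03 CPM. The rule matched no row named nodal5 and no nodal3 row besides nodal3.2.L, and rows of these genes under other names were not searched for. In the reference table for the assembly Xenopus_laevis_v10.1, which matched 10 of the 11 members by symbol, nodal2.L and nodal1.L are direct neighbours and nodal6.L lies next to nodal5.2.L.

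nodal1.L, a mesendoderm inducer, had 4, 5 and 13 reads in controls and 7, 2 and 44 reads in dkk siblings. In mating 3 the exact 95% Poisson intervals of the siblings, 6.92 to 22.2 and 32 to 59.1 reads, did not overlap. That compares 2 libraries and not the conditions, since in mating 2 the control had more reads than the dkk embryo.

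nodal2.L, which has a like role, had 2, 11 and 10 reads in controls and 2, 1 and 35 reads in dkk siblings. It was the only numbered member that passed the filter, and its log2 fold change was 0.09 ± 0.91 (SE; adjusted p = 0.994, edgeR), with log2 ratios of -0.06, -2.13 and 1.47 in pairs 1 to 3. Its groups overlapped fully, with the lowest and the highest value both in dkk embryos, and the sign turned to -0.11 when the copies were summed.

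nodal6.L, one of the early zygotic genes, had 2, 6 and 4 reads in controls and 1, 5 and 23 in dkk siblings. Its intervals in mating 3 were 1.09 to 10.2 reads for the control and 14.6 to 34.5 for the dkk embryo. nodal2.S followed with 3, 2 and 4 reads in controls and 1, 0 and 13 in dkk siblings. These rows, too, were highest in the dkk embryo of mating 3.

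nodal3.2.L, the gene of the family known as a direct Wnt target before gastrulation, had 2, 4 and 5 reads in controls and 2, 1 and 7 in dkk siblings. nodal1.S had 1, 1 and 2 reads in controls and 0, 1 and 6 in dkk siblings, and nodal6.S had 1, 2 and 1 and then 0, 5 and 5. These 3 rows had at most 7 reads in any embryo, and the exact 95% Poisson interval of a count of 0 reached 3.69. A difference in them was therefore not detectable at this depth.

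**Figure D2:**
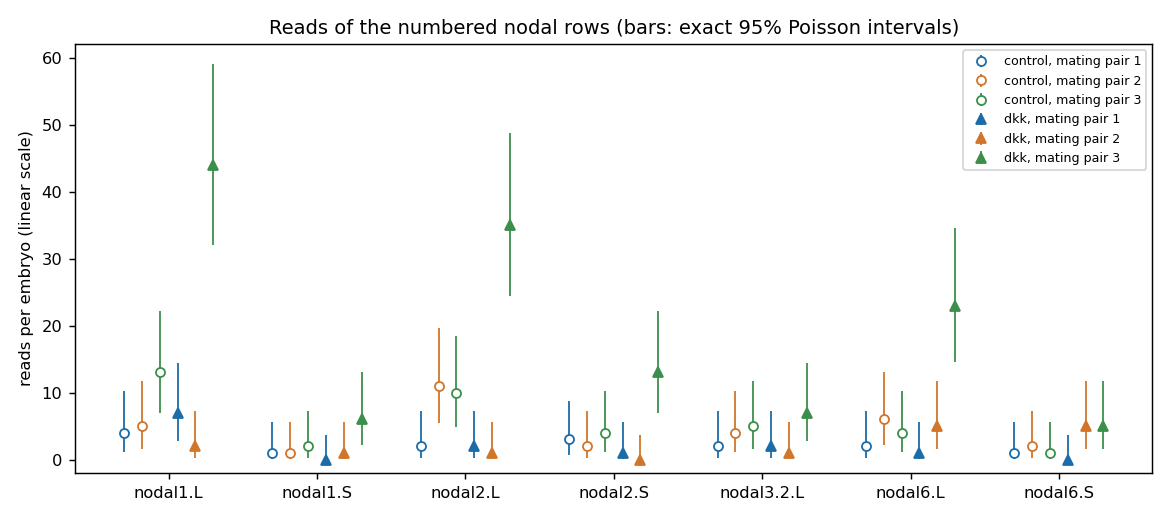
Reads per embryo (linear axis) of the 7 numbered nodal rows, with open circles for controls, filled triangles for dkk embryos, colours for mating pairs and bars for exact 95% Poisson intervals. The dkk embryo of mating pair 3 stands highest in nodal1.L, nodal2.L and nodal6.L, at 44, 35 and 23 reads.

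Differences between matings were tested in the same model, by a test that made too large a share of false calls on simulated counts. lefty.S passed this test (adjusted p = 0.0378, edgeR) and was the 1 of 5 tested members that did, where 22.2% of all tested genes passed. In both groups its lowest level was in mating 1, at 9.39 and 14.2 CPM, and its highest in mating 2, at 17.6 and 37.1 CPM. For nodal.S both low values were in mating 2, but the difference did not pass (adjusted p = 0.078), nor did those of lefty.L (0.18), nodal2.L (0.134) and nodal.L (0.504, all edgeR).

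Of the related rows outside the rule, gdf3.1 was well read. In Xenopus, gdf3 encodes Derrière, a ligand of posterior mesoderm that can pair with Nodal. It had 112, 126 and 135 CPM in controls and 129, 115 and 138 CPM in dkk siblings, and the groups overlapped. Its log2 fold change was 0.04 ± 0.11 (SE; adjusted p = 0.972, edgeR), with a smaller SE than that of any tested member, and its sign turned to -0.055 without pair 1. gdf1.1, whose name is that of the maternal Xenopus ligand Vg1, had 2, 0 and 1 reads in controls and 6, 3 and 1 in dkk siblings.

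The other genes of the pathway were listed by role, and 37 of 59 symbols had rows. Of 67 tested rows 3 rose, 2 fell and 62 did not pass, that is 5 calls where 0.573% of all tested genes were called (edgeR with Benjamini-Hochberg adjustment). Their median log2 fold change was 0.05. Leaving out pair 2 left 2 calls and leaving out pair 3 gave 15, and a fit that ignored the mating gave 1. Over all genes these fits called 58 of 22269, 659 of 21750 and 14 of 21643.

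Among receptors and co-receptors 0 of 9 tested rows passed, 0 had an unadjusted p under 0.05, and their median log2 fold change was -0.21. The row with the smallest p was acvr2b.S, a type II Activin receptor, at -0.30 ± 0.15 (SE; adjusted p = 0.7, edgeR), with 80.2 to 118 CPM in controls and 52.8 to 95.3 CPM in dkk embryos. The Cripto-family copy tdgf1.1.L stood at -0.46 ± 0.26 (adjusted p = 0.763). Its log2 ratios were -0.09, -0.11 and -1.16, so that most of the difference lay in pair 3. The other tdgf1 rows did not share this: tdgf1.3.L stood at -0.14 with log2 ratios of 0.11, -0.73 and 0.20. For tdgf1.3.S the values were -0.22 and 0.12, -0.57 and -0.22. The 3 tested convertase rows, whose enzymes cut ligand precursors, had 0 calls, 0 at an unadjusted p under 0.05 and a median log2 fold change of -0.0012, with furin.S at 0.05 ± 0.34 and pcsk6.L at -0.08 ± 0.28. DESeq2 and limma-voom called 0 rows of either list.

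Of the intracellular effectors 0 of 7 passed, and an unadjusted p under 0.05 was reached by 1 higher row and 1 lower row (3.63% and 4.19% of all tested genes); DESeq2 and limma-voom called 0. eomes.L, a T-box partner of Smad2, was at 63.8, 68.8 and 76.1 CPM in controls and 83.3, 91.9 and 113 CPM in dkk siblings. The groups did not overlap, dkk higher as in 2.66% of tested genes. The log2 fold change was 0.46 ± 0.11 (SE), with an adjusted p of 0.218 (edgeR). The S copy went otherwise, at 80.9, 73.3 and 63.6 CPM in controls and 52.9, 51.1 and 122 CPM in dkk siblings. The log2 ratios of eomes.S were -0.61, -0.52 and 0.94 in pairs 1 to 3, so it was higher only in pair 3. foxh1.2.L, a forkhead partner of Smad2, stood at -0.60 ± 0.22 (adjusted p = 0.506) and was lower in each dkk embryo than in its sibling. Its log2 ratios were -0.32, -1.20 and -0.30, and without pair 2 it stood at -0.31. The other foxh1 rows did not share the fall in every pair: foxh1.L stood at 0.23 with log2 ratios of 0.26, 0.59 and -0.15. For foxh1.S the values were -0.37 and -0.37, -1.06 and 0.37.

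The secreted inhibitor gene cer1, which encodes a Cerberus protein that binds Nodal, Bmp and Wnt ligands, lay on the opposite side from lefty. cer1.L was at 102, 83.5 and 71.8 CPM in controls and 12.4, 18.0 and 58.7 CPM in dkk siblings, and cer1.S at 286, 342 and 269 CPM and then 98.5, 147 and 227 CPM. The groups did not overlap in either copy, lower in dkk as in 2.89% of tested genes, and here again pair 3 moved least, with log2 ratios of -3.02, -2.21 and -0.29 for cer1.L. Neither copy passed over all pairs (cer1.L at -1.84 ± 0.66, adjusted p = 0.656, and cer1.S at -1.001 ± 0.26, adjusted p = 0.36, edgeR). Without pair 3 both did, at -2.61 (adjusted p = 0.00632) and -1.37 (adjusted p = 0.00186, edgeR), in a fit where 3.03% of all tested genes passed. In the inhibitor list 0 of 8 tested rows passed with all pairs in (edgeR). An unadjusted p under 0.05 was reached by 1 lower row and 0 higher rows (4.19% and 3.63% of all tested genes). DESeq2 called 1, cer1.S, against 1.78% of genes, and limma-voom 0, against 0.651%.

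Of the upstream regulators 3 of 9 symbols had rows. Of the 6 tested rows 1 rose, where 0.106% of all tested genes rose, and 5 did not pass (edgeR). DESeq2 and limma-voom each called 2, against 1.78% and 0.651% of all genes. An unadjusted p under 0.05 was reached by 3 higher and 0 lower rows (3.63% and 4.19% of all tested genes). Higher in 3 of 3 pairs were 4 of the 6, against 13.4% of all tested genes. These 4 are the L and S copies of tcf7l1 and sox7, so they are not 4 independent genes. The row that rose was tcf7l1.L, which encodes a Tcf repressor of Wnt targets. It went from 224 ± 38.0 CPM (SD, n = 3) to 356 ± 58.9 CPM, with a log2 fold change of 0.67 ± 0.09 (SE) and an adjusted p of 0.0291 (edgeR). tcf7l1.S stood at 0.62 ± 0.10 and missed the threshold (adjusted p = 0.0506, edgeR). It passed with DESeq2 (0.00182), with limma-voom (0.0456) and in edgeR with DESeq2 size factors (0.0494), upper-quartile scaling (0.0338), no filter (0.00336) or pair 3 left out (0.0116). tcf7l1.S did not pass with a 1 CPM filter (0.0513), nor without pair 1 (0.21), pair 2 (0.277) or the mating block (0.9999, edgeR). The call of tcf7l1.L was lost without pair 1 (adjusted p = 0.0846), pair 2 (0.18) or the mating block (0.9999, edgeR).

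Among mesendodermal genes that Nodal signalling can switch on, 2 of 34 tested rows rose, 2 fell and 30 did not pass (edgeR), while DESeq2 called 10 and limma-voom 5. Over all tested genes 0.106% rose and 0.467% fell in edgeR, and DESeq2 called 1.78% and limma-voom 0.651%. An unadjusted p under 0.05 was reached by 11 higher and 2 lower rows (3.63% and 4.19% of all tested genes). Higher in 3 of 3 pairs were 12 of the 34, against 13.4% of all tested genes. L and S copies, as of hhex, lhx1 and foxa4, are counted apart, so the 12 are not independent genes. Both copies of Brachyury, the T-box gene of the mesoderm, fell, with log2 fold changes of -1.56 for t.L and -1.13 for t.S. hhex.L of the anterior endomesoderm rose by 1.17 and the organizer gene lhx1.S by 0.75. The list's median log2 ratio was 0.01, -0.04 and 0.70 in pairs 1 to 3, so it was highest in the pair with the smallest nodal.L and lefty.L ratios. The low-count rows nodal1.L, nodal2.L and nodal6.L were also highest in pair 3, with log2 ratios there of 1.46, 1.47 and 1.90. The call of hhex.L was lost without pair 2 (adjusted p = 0.0787) and that of lhx1.S without pair 1 (0.0545) or pair 2 (0.124, edgeR). Of the 97 genes in the authors' deposited table, 0 were members and 1 was of these pathway rows, t.L, with a log2 fold change of -1.41 there.

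**Figure D3:**
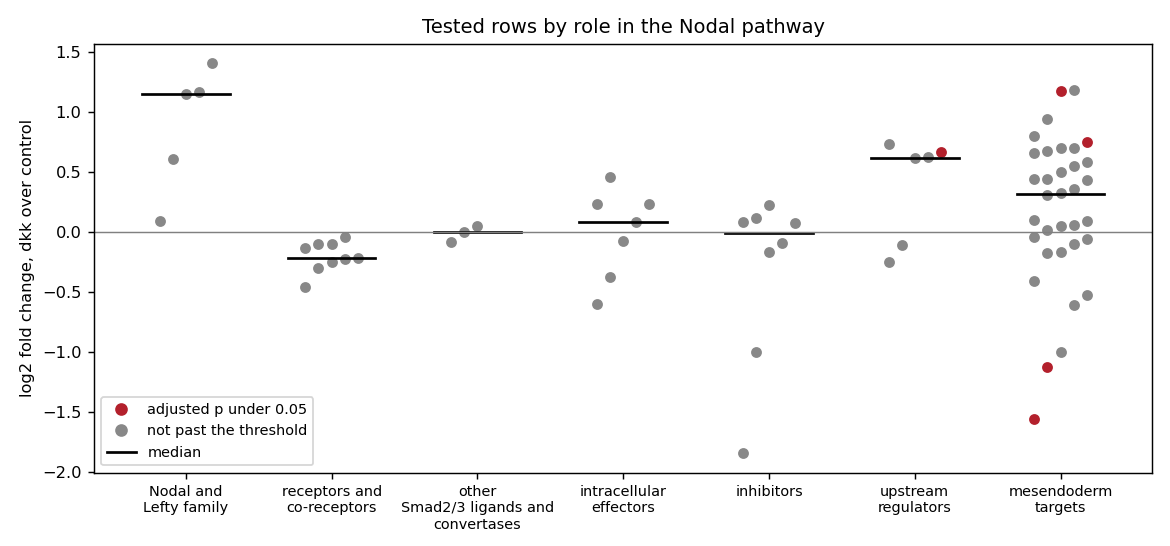
Log2 fold change of dkk over control for each tested row, grouped by role, with red for an adjusted p under 0.05, grey for the rest and a black line at the median. The 5 tested Nodal and Lefty rows have a median of 1.15 and no red point, and the red points are tcf7l1.L, hhex.L and lhx1.S above 0 and t.L and t.S below.

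**Figure D4:**
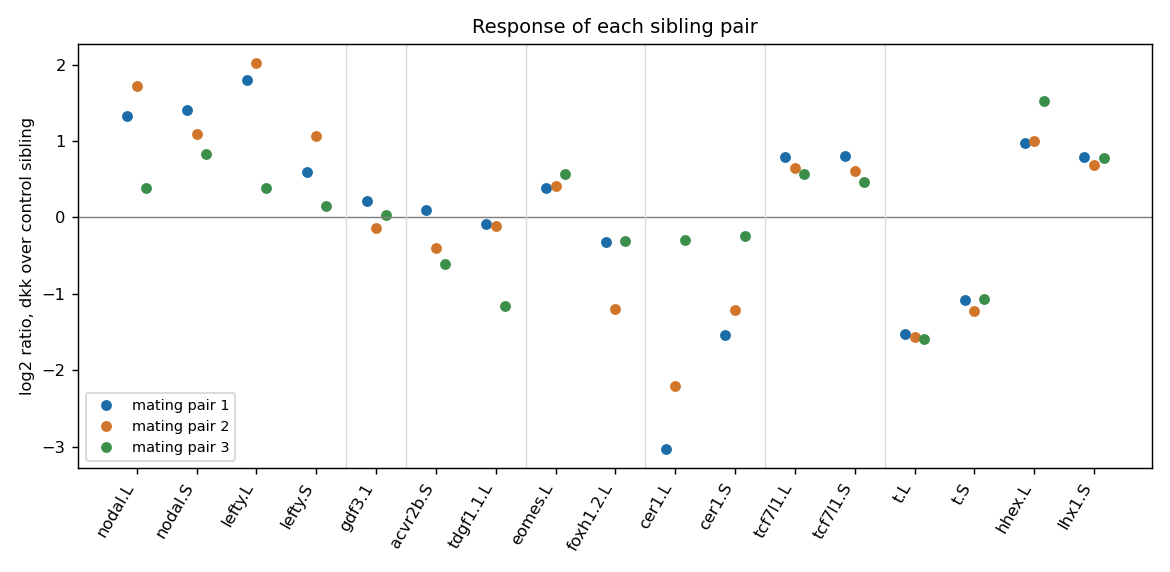
Log2 ratio of each dkk embryo over its control sibling, coloured by mating pair, for nodal and lefty copies, gdf3.1 and pathway genes. In nodal.L, lefty.L, cer1.L and cer1.S pair 3 lies nearest to 0, while in t.L the 3 pairs lie between -1.59 and -1.53.

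Of 8 tested rows in a list of p53 response genes 2 rose, ccng1.L and ccng1.S, and 0 fell (0.106% and 0.467% of all tested genes, edgeR). Higher in 3 of 3 pairs were 7 of the 8, against 13.4% of all tested genes. The 8 are L and S copies of ccng1, cdkn1a, mdm2 and gadd45a, so they are not independent genes. The list summed to 219 to 374 CPM in controls and 264 to 624 CPM in dkk embryos. Its median log2 ratio was 0.73, 1.06 and 0.27 in pairs 1 to 3, smallest in pair 3 as in nodal.L. The rows that rose were not smallest there: the log2 ratios were 0.93, 1.57 and 1.42 for ccng1.L and 1.49, 1.17 and 1.66 for ccng1.S. The list's part in the differences of the members was not tested. The call of ccng1.L was lost without pair 2 (adjusted p = 0.0613) and that of ccng1.S without pair 1 (0.053, edgeR).

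The gene rows most like nodal.L over the 6 embryos were dusp1.L (Pearson r = 0.991 of log2 CPM), tesc.S (0.989) and cgrrf1.L (0.987). dusp1.L, a phosphatase gene that restrains MAP kinases, was at 65.2, 74.5 and 85.8 CPM in controls and 134, 163 and 111 CPM in dkk siblings. It shares with nodal.L the order of the 6 embryos. The siblings share parents, 99 named rows had an r above 0.9, and these 3 were picked for the highest values.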

How the data were processed

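The authors deposited unnormalized gene-level read counts, 1 file per embryo. The submitters' processing notes name TopHat2, SAMtools and HTSeq, without versions; no source used here gives the build or annotation. The authors also deposited a table of their own comparison which, per the file headers, holds a baseMean (a signal averaged over embryos), log2 fold changes and their errors, a test score, p-values and adjusted p-values; its model was not stated. Rows that name no gene held 25.6% to 28.2% of counted reads and were left out. Counts were fitted with edgeR 4.0.16 (R 4.3.3): TMM scaling, filterByExpr (minimum count 10, total 15), robust quasi-likelihood F test and the mating pair as a block, since the series' text makes same-numbered embryos siblings. Deviations from group means correlated at 0.674, 0.552 and 0.622 within pairs. P-values were adjusted over the 21643 genes that passed this filter (threshold 0.05) and rest on how the effect varies over 3 sibling pairs. SEs are those implied by F. Log2 ratios within a pair had a prior count of 2 added. Alternatives used DESeq2 1.42.0 and limma 3.58.1 (voom). On simulated counts the paired treatment fits and, most of all, the test between matings made a larger share of false calls than the threshold allows for. Intervals cover counting error only.

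The members and lists were chosen with earlier results of these data known. Named were all members, the Wnt check rows and, of the lists, every row past the threshold plus the 2 rows with the smallest p of each pathway list, and the 3 rows most correlated with nodal.L. The comparison of L with S copies was added after the data were seen.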

Additional observations from a re-analysis of the deposited data

How the results depend on the processing

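Member calls were 0 with other scalings (DESeq2 size factors, upper quartile), with limma-voom, with a minimum of 1 CPM in 3 libraries, with L and S copies summed and in the fit without the mating pair as a block. They numbered 2 with DESeq2 (nodal.L and lefty.L), 1 with no filter (nodal.L, adjusted p = 0.0355, edgeR) and 0 to 2 when a mating pair was left out. The cause of these differences was not tested. Pathway calls, 5 in the main analysis, became 1 without the block, 13 with DESeq2, 11 with no filter and 2 to 15 with a pair left out. The DESeq2 fit and the fit with no filter each held 11 members and 73 pathway rows. Over all genes the 124 calls became 14 without the block and 391 (1.78%) with DESeq2. They became 343 of 35909 with no filter and 58 to 659 with a pair left out. Between matings, 2 members passed with a DESeq2 likelihood ratio test (lefty.L, lefty.S) and 2 with no filter (lefty.S, nodal1.L). Both fits held 11 members, and the share of all genes that passed in them was not counted. In the main fit that share was 22.2%. The log2 fold changes of nodal.L, nodal.S, lefty.L and lefty.S kept their sign under every alternative run. Signs turned for nodal2.L with copies summed (-0.11), and, with a pair left out, for gdf3.1 (-0.055 to 0.12), pcsk6.L (-0.51 to 0.20) and furin.S (-0.40 to 0.31). Of the 7 numbered nodal rows 6 did not pass the filter on low counts and were not tested in the main analysis.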
